A study of Mus musculus with 12 samples.

Results

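The genes described here are 40 ribosome biogenesis and nucleolar genes, followed through 12 libraries of mouse stomach organoids with and without Wnt inhibition. They were taken by symbol as the rows of the expected-count table that carry one of 40 fixed names, and all 40 were found among 55421 gene rows. Ribosomes are built in the nucleolus, where RNA polymerase I transcribes the long ribosomal RNA precursor. Small nucleolar ribonucleoproteins (snoRNPs) modify that precursor, a large assembly called the small subunit processome cuts and folds the part that becomes the 40S subunit, and a separate set of factors builds the 60S subunit. Dividing cells make many ribosomes, several of these genes are textbook targets of the transcription factor MYC, and MYC is in turn a known Wnt target in intestinal epithelium.

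Organoids were grown from wild-type gastric glands of 2 stomach regions, the corpus (the body) and the antrum (the outlet end). The inhibited cultures received XAV939 (labelled as 1 mM), which inhibits tankyrase and so stabilises AXIN against Wnt signalling. They also lost added Wnt and R-spondin, and received Noggin-1 at 100 ng/mL. The vehicle cultures received DMSO in their usual medium, of which 50% was L-WRN, conditioned by cells engineered to release Wnt3a, R-spondin and Noggin. Treatment started 4 days after a passage, and RNA was taken 24 h later. The effects of compound and medium change cannot be told apart. Nor can region and serum, which made up 20% of the corpus medium and 10% of the antral medium. The 4 groups of 3 were corpus inhibited, corpus vehicle, antrum inhibited and antrum vehicle, with 3 independent lines named 8025, 8026 and 8028 in each region, and values below follow that order of lines.

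Library totals ran between 18858022 and 31656696 counts, and the lowest count of any of the 40 genes in any library was 379 (Rrp12), so all 40 passed the filter on low counts. Levels are in CPM, counts scaled to a common, normalized library total. Both corpus libraries of line 8028 stood apart: on the second principal component (19.2% of the variance) they lay at 21.8 (inhibited) and -0.4 (vehicle), while the other corpus libraries lay between -31.5 and -20.7 and the antral libraries between 4.5 and 26.6. In antrum vehicle, 4 rRNA-like genes took 17.2% of the counts of line 8025 and 6.87% of those of line 8028, while they took at most 3.45% in the other libraries. Wnt inhibition was visible in Axin2, a feedback inhibitor of Wnt signalling, with 3.71, 5.39 and 18.7 CPM in corpus inhibited libraries and 70.7, 64.2 and 71.4 CPM in corpus vehicle libraries, and with 11.5, 14.3 and 11.3 CPM in antrum inhibited and 70.1, 79.0 and 77.4 CPM in antrum vehicle libraries. The epithelial markers Epcam and Cdh1 were present in every library, while the parietal cell marker Atp4b was at 0 in 11 of the 12 libraries and the gastrin gene Gast did not exceed 0.167 CPM.

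In corpus, Gar1, Npm1, Gnl2, Nop16 and Rrp1b fell and Polr1c rose with Wnt inhibition; in antrum, Gar1, Npm1 and Rrp1b fell and Polr1c rose. These changes were small. The 5 falls in corpus spanned log2 changes between -0.68 for Rrp1b and -0.26 for Gnl2, and the rises of Polr1c were 0.44 ± 0.0725 (SE) in corpus and 0.42 ± 0.0726 in antrum. Of the 40 fitted changes 38 were negative in corpus, with a median of -0.28 beside -0.04 over all 16152 genes tested, and 36 were negative in antrum, with a median of -0.25 beside -0.04. The test was edgeR's quasi-likelihood test with Benjamini-Hochberg adjustment at 0.05. It called 12.5% of the members lower in corpus, where 15.4% of all genes were called lower, and 7.5% in antrum, where the share was 13.4%. The single rise stands beside 15.5% of all genes called higher in corpus and 16.3% in antrum. In this fit, which does not pair the lines, the shares of members called lower were below those of all genes; with the lines paired they were above them, at 55% in corpus and 25% in antrum, as given next. At an unadjusted p below 0.05 the members numbered 10 in corpus and 5 in antrum, and the share of all genes at that level is not given here. In bulk RNA, fewer cells of a type and less RNA per cell cannot be told apart.

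The corpus count turned on the lines. With the line kept as a block, since each line was treated both ways, 22 members were lower (55%, beside 23.7% of all genes) and Polr1c was higher (beside 19.8%). Those lower with the block were Polr1a, Nop56, Nop58, Fbl, Dkc1, Gar1, Nolc1, Ncl, Npm1, Mybbp1a, Utp20, Wdr43, Wdr75, Noc4l, Ddx10, Pes1, Wdr12, Gnl2, Gnl3, Noc2l, Nop16 and Rrp1b. Without the inhibited library of line 8028, 30 members were lower (75%, beside 21.2% of all genes) and Polr1c was higher (beside 20.5%). Without both libraries of that line, 25 were lower (62.5%, beside 19% of all genes). All 40 members lay above their group mean in that inhibited library. Leaving it out therefore lowers the inhibited group by construction, and these counts are no independent support. Leaving out any other single corpus library lowered the count, and the share of all genes too. The count was 1 without inhibited line 8025 (beside 11.1% of all genes) and 0 without inhibited line 8026 (beside 10.2%). With vehicle line 8025, 8026 or 8028 left out in turn it was 1, 2 and 1 (beside 10.7%, 10.8% and 11.4%). In antrum the block gave 10 members lower (25%, beside 20.2%), namely Fbl, Gar1, Ncl, Npm1, Utp20, Noc4l, Gnl3, Noc2l, Nop16 and Rrp1b, and Polr1c higher (beside 20.6%). Leaving out inhibited line 8025 or 8028, or vehicle line 8025 or 8026, left 0 members lower in antrum. The shares of all genes were then 8.65%, 9.94%, 9.45% and 9.22%. Leaving out inhibited line 8026 or vehicle line 8028 left 2 members lower (beside 9.39% and 10.5%).

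**Figure D1:**
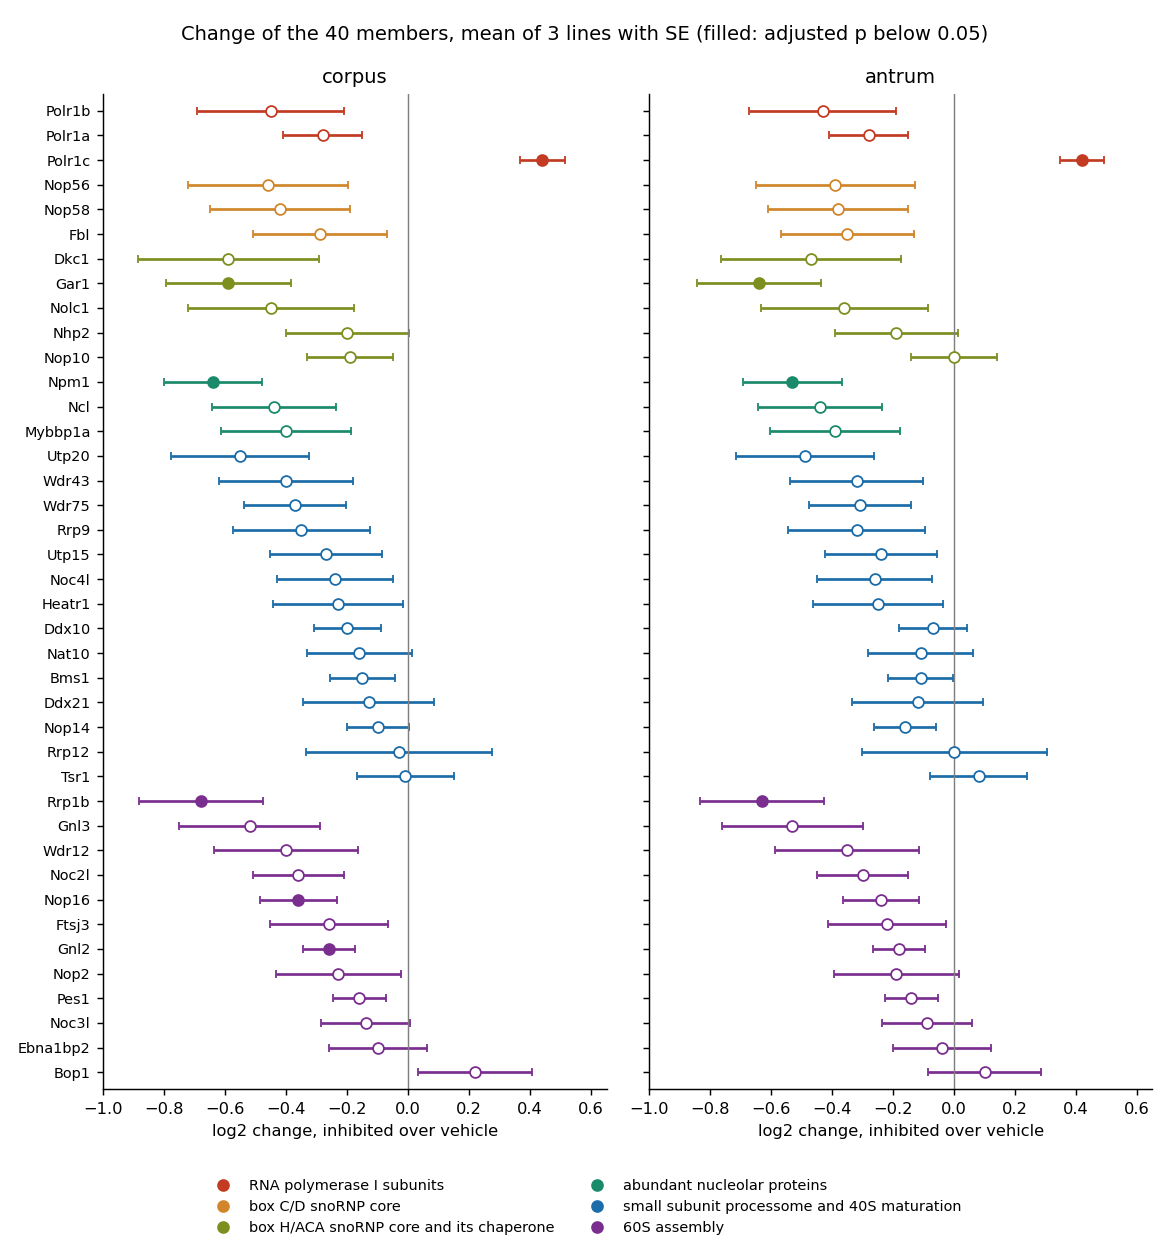
Log2 change with its SE (edgeR, 3 inhibited over 3 vehicle libraries) for the 40 members in corpus (left) and antrum (right), coloured by role and filled where the adjusted p was below 0.05. The 38 negative changes in corpus and 36 in antrum lie left of the line at 0, and Polr1c is the only filled point to its right, at 0.44 and 0.42.

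RNA polymerase I was represented by its 2 largest subunits, Polr1a and Polr1b, and by Polr1c, a subunit shared with RNA polymerase III. Polr1c had 111, 112 and 116 CPM in corpus inhibited libraries and 77.2, 84.7 and 87.6 CPM in corpus vehicle libraries. In antrum it had 108, 114 and 121 CPM in inhibited libraries and 77.7, 89.4 and 90.0 CPM in vehicle libraries. The inhibited libraries were above every vehicle library in both regions, with adjusted p 0.000864 in corpus and 0.00126 in antrum (edgeR). Its corpus call was lost only with total-count scaling among the 19 alternatives run there (0.28 on the log2 scale, adjusted p 0.0756), a scaling that moved the median change of all genes in corpus to -0.19.

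Polr1b had 20.1, 25.6 and 46.3 CPM in corpus inhibited libraries and 42.9, 37.4 and 45.9 CPM in corpus vehicle libraries. The groups overlapped through line 8028, and the change of -0.45 ± 0.241 had an edgeR adjusted p of 0.18. In antrum Polr1b had 36.3, 40.5 and 34.4 CPM in inhibited libraries and 50.8, 56.0 and 42.5 CPM in vehicle libraries, without overlap (-0.43 ± 0.241, adjusted p 0.208). Polr1a stood at -0.28 ± 0.13 in both regions, and passed, lower, in corpus with the line block. Subunits of the same enzyme were therefore measured on both sides of 0.

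Box C/D snoRNPs are the particles that methylate ribosomal RNA. None of their 3 core proteins passed edgeR, DESeq2 or limma-voom in either region (0 at an unadjusted p below 0.05). Over all genes edgeR called 15.4% lower in corpus and 13.4% in antrum. All 3 core proteins passed, lower, in corpus with the line block (beside 23.7% of all genes). Nop58, a core scaffold protein, had 75.2, 93.2 and 161 CPM in corpus inhibited libraries and 145, 132 and 163 CPM in corpus vehicle libraries. Inhibited line 8028 was level with the vehicle libraries and the other inhibited libraries were below them all (-0.42 ± 0.229, adjusted p 0.194). Antral libraries had 117, 148 and 131 CPM in inhibited libraries and 166, 198 and 151 CPM in vehicle libraries, without overlap (-0.38 ± 0.229). Fbl, fibrillarin, the methyltransferase of the particle, had 74.6, 85.4 and 147 CPM in corpus inhibited libraries and 114, 120 and 143 CPM in corpus vehicle libraries. Here the inhibited library of line 8028 was the highest of the 6 (-0.29 ± 0.219, adjusted p 0.341). In antrum Fbl had 105, 130 and 107 CPM in inhibited libraries and 139, 169 and 127 CPM in vehicle libraries, with an overlap between lines 8026 and 8028 (-0.35 ± 0.219). Nop56, the partner of Nop58, stood at -0.46 ± 0.261 in corpus and -0.39 ± 0.261 in antrum.

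The box H/ACA particles convert uridine to pseudouridine. Gar1, one of their core proteins, had 25.5, 31.3 and 47.1 CPM in corpus inhibited libraries and 45.4, 52.2 and 58.5 CPM in corpus vehicle libraries. Only the inhibited library of line 8028 reached the vehicle range. In antrum Gar1 had 36.5, 47.5 and 36.9 CPM in inhibited libraries and 61.3, 72.8 and 54.2 CPM in vehicle libraries, all inhibited values lying lower. Gar1 fell by 0.59 ± 0.205 on the log2 scale in corpus (adjusted p 0.0496) and by 0.64 ± 0.204 in antrum (adjusted p 0.0354), and was lower in each of the 3 lines of both regions. Nhp2, another core protein, had 58.8, 64.3 and 107 CPM in corpus inhibited libraries and 86.8, 81.5 and 97.1 CPM in corpus vehicle libraries (-0.20 ± 0.201, adjusted p 0.477). In the antral libraries it was at 84.7, 106 and 86.4 CPM in inhibited libraries and 97.0, 124 and 94.5 CPM in vehicle libraries, and the groups overlapped in both regions. Dkc1, dyskerin, the pseudouridine synthase, stood at -0.59 ± 0.296 in corpus and -0.47 ± 0.295 in antrum, Nop10 at -0.19 ± 0.141 and -0.00 ± 0.141, and Nolc1, a chaperone of these particles, at -0.45 ± 0.273 and -0.36 ± 0.273; none of the 3 passed in either region without the line block, and Dkc1 (adjusted p 0.0174) and Nolc1 (adjusted p 0.0251) passed, lower, in corpus with it.

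Npm1, nucleophosmin, one of the most abundant nucleolar proteins and a histone chaperone, had 529, 581 and 896 CPM in corpus inhibited libraries and 985, 1008 and 1128 CPM in corpus vehicle libraries. Its antral values were 657, 762 and 671 CPM in inhibited libraries and 974, 1066 and 988 CPM in vehicle libraries. The groups did not overlap in either region. Npm1 fell by 0.64 ± 0.162 on the log2 scale in corpus (adjusted p 0.0114) and by 0.53 ± 0.161 in antrum (adjusted p 0.0277). Processed copies of such genes elsewhere in the genome can share reads with them, so the split between Npm1 and its copies is uncertain. Mybbp1a, a nucleolar protein named for its binding to MYB, had 149, 167 and 285 CPM in corpus inhibited libraries and 257, 239 and 297 CPM in corpus vehicle libraries (-0.40 ± 0.213, adjusted p 0.18). For antrum the values were 208, 244 and 213 CPM in inhibited libraries and 293, 337 and 241 CPM in vehicle libraries, the groups overlapping in both regions (-0.39 ± 0.213). Ncl, nucleolin, stood at -0.44 ± 0.204 in each region. With the line block Ncl passed, lower, in both regions, and Mybbp1a in corpus.

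**Figure D2:**
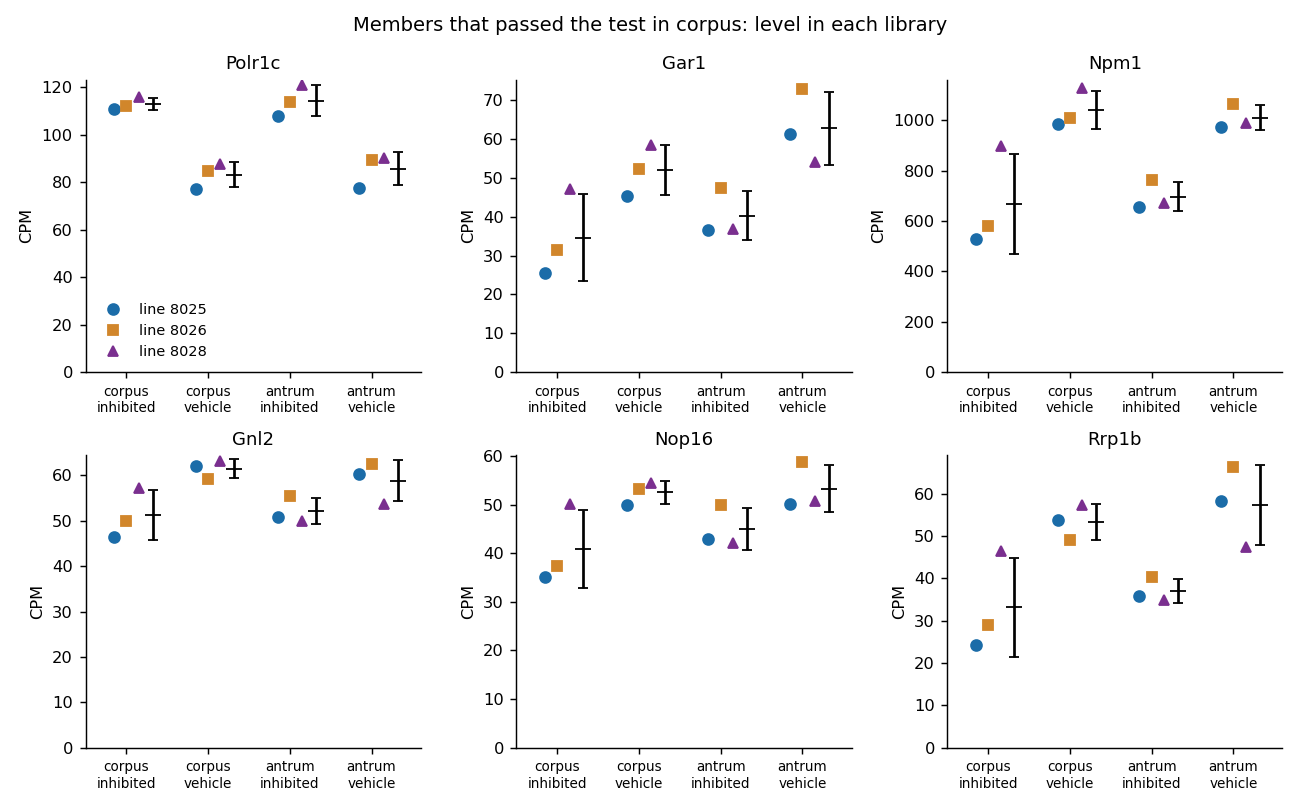
CPM in each library for the 6 members that passed the test in corpus, by group (inhibited left of vehicle within each region) with the mean and SD of 3 lines at the right of each group and symbols for the lines. Polr1c is higher in all inhibited libraries; in the other panels the corpus inhibited library of line 8028 (triangle) is the highest of its group, as with 896 CPM for Npm1.

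The 14 members of the small subunit processome and of 40S maturation gave no call by edgeR, DESeq2 or limma-voom in either region (2 in corpus and 0 in antrum at an unadjusted p below 0.05), with a median change of -0.21 in corpus and -0.20 in antrum. Over all genes edgeR called 15.4% lower in corpus and 13.4% in antrum. With the line block 5 of the 14 were lower in corpus, namely Utp20, Wdr43, Wdr75, Noc4l and Ddx10 (beside 23.7% of all genes). In antrum 2 were lower with it, Utp20 and Noc4l (beside 20.2%). Utp20, a large scaffold protein of the processome, had 22.4, 28.8 and 47.4 CPM in corpus inhibited libraries and 49.8, 40.1 and 54.2 CPM in corpus vehicle libraries (-0.55 ± 0.226, adjusted p 0.0897). In antrum it had 35, 40.6 and 36.9 CPM in inhibited libraries and 48.2, 61.4 and 48.4 CPM in vehicle libraries, without overlap (-0.49 ± 0.226, adjusted p 0.125). Tsr1, needed for late 40S maturation in yeast, lay at the other end of the group. It had 70.1, 78.8 and 113 CPM in corpus inhibited libraries and 89.4, 80.3 and 94.4 CPM in corpus vehicle libraries, the inhibited group spanning the vehicle group (-0.01 ± 0.159, adjusted p 0.972). Antral libraries had 93.9, 112 and 94.7 CPM in inhibited libraries and 95.4, 106 and 83.3 CPM in vehicle libraries (0.08 ± 0.159). Tsr1 shares 1240 exon bases with Srr on the other strand, so part of its counts could belong to that gene.

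The remaining members of this role lay between them. The processome scaffold proteins Wdr43, Wdr75, Utp15 and Heatr1 stood at -0.40 ± 0.22, -0.37 ± 0.167, -0.27 ± 0.184 and -0.23 ± 0.213 in corpus, and at -0.32 ± 0.219, -0.31 ± 0.167, -0.24 ± 0.184 and -0.25 ± 0.212 in antrum. Rrp9, a protein of the U3 snoRNP, stood at -0.35 ± 0.225 in corpus and -0.32 ± 0.225 in antrum. Noc4l and Nop14, which bind each other in yeast, stood at -0.24 ± 0.189 and -0.10 ± 0.102 in corpus and at -0.26 ± 0.189 and -0.16 ± 0.102 in antrum. The GTPase Bms1 stood at -0.15 ± 0.106 and -0.11 ± 0.106, the RNA acetyltransferase Nat10 at -0.16 ± 0.171 and -0.11 ± 0.172, and Rrp12 at -0.03 ± 0.304 and 0.00 ± 0.303, corpus before antrum in each case. The RNA helicases Ddx10 and Ddx21 stood at -0.20 ± 0.11 and -0.13 ± 0.216 in corpus and at -0.07 ± 0.111 and -0.12 ± 0.216 in antrum.

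Of the 12 members for 60S assembly, Rrp1b, Gnl2 and Nop16 fell in corpus (beside 15.4% of all genes). Rrp1b also fell in antrum (beside 13.4%). Rrp1b, a nucleolar protein related to a yeast 60S processing factor, had 24.2, 28.9 and 46.4 CPM in corpus inhibited libraries and 53.7, 49.0 and 57.4 CPM in corpus vehicle libraries. In the antral libraries it was at 35.9, 40.2 and 34.9 CPM in inhibited libraries and 58.3, 66.2 and 47.3 CPM in vehicle libraries. All inhibited values were below all vehicle values in both regions, with changes of -0.68 ± 0.203 (adjusted p 0.0247) and -0.63 ± 0.203 (adjusted p 0.0362). Gnl2, a GTPase that acts on pre-60S particles, had 46.4, 49.9 and 57.2 CPM in corpus inhibited libraries and 62.1, 59.2 and 63.1 CPM in corpus vehicle libraries, without overlap (-0.26 ± 0.0857, adjusted p 0.0364). Its antral values were 50.9, 55.4 and 50.0 CPM in inhibited libraries and 60.3, 62.4 and 53.7 CPM in vehicle libraries, with overlap (-0.18 ± 0.0859, adjusted p 0.148). Nop16 had 35.2, 37.3 and 50.1 CPM in corpus inhibited libraries and 49.9, 53.1 and 54.5 CPM in corpus vehicle libraries, overlapping through line 8028 (-0.36 ± 0.126, adjusted p 0.0496). In antrum Nop16 had 43, 50.0 and 42.0 CPM in inhibited libraries and 50.2, 58.8 and 50.8 CPM in vehicle libraries. The groups just did not overlap (-0.24 ± 0.126, edgeR adjusted p 0.167). With the line block Nop16 passed, lower, in antrum too (edgeR adjusted p 0.0342).

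Ebna1bp2 had the highest adjusted p of the 60S group in corpus, with 65, 69.9 and 103 CPM in corpus inhibited libraries and 82.2, 77.3 and 96.1 CPM in corpus vehicle libraries (-0.10 ± 0.161, adjusted p 0.68). For antrum the values were 85.6, 95.9 and 85.7 CPM in inhibited libraries and 89.5, 104 and 81.0 CPM in vehicle libraries, so the groups overlapped in both regions. Bop1, Pes1 and Wdr12 form one complex, PeBoW. Bop1 was at 0.22 ± 0.187 in corpus and 0.10 ± 0.186 in antrum, Pes1 at -0.16 ± 0.0881 and -0.14 ± 0.0882, and Wdr12 at -0.40 ± 0.237 and -0.35 ± 0.236. None of them passed without the line block; with it Pes1 (adjusted p 0.0358) and Wdr12 (adjusted p 0.034) passed, lower, in corpus. The 3 were not tested against each other. Gnl3, nucleostemin, a nucleolar GTPase, stood at -0.52 ± 0.231 in corpus and -0.53 ± 0.231 in antrum. With the line block Gnl3 passed, lower, in both regions, as did Noc2l. Noc2l and Noc3l, pre-ribosome binding proteins known from yeast, stood at -0.36 ± 0.15 and -0.14 ± 0.147 in corpus and at -0.30 ± 0.15 and -0.09 ± 0.147 in antrum. The RNA methyltransferases Nop2 and Ftsj3 stood at -0.23 ± 0.205 and -0.26 ± 0.194 in corpus and at -0.19 ± 0.205 and -0.22 ± 0.194 in antrum.

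How often a call held over the alternatives differed between the genes. In corpus Npm1 kept its call under 15 of 19 alternatives, Rrp1b under 11, Gnl2 under 10, and Gar1 and Nop16 under 9 each; the highest adjusted p was 0.0962 for Npm1 and 0.281 for Nop16, both without the libraries of line 8026. In antrum Gar1 kept its call under 11 of 20 alternatives and Npm1 and Rrp1b under 10 each, with 0.189 the highest adjusted p among them. Polr1c kept its call under 18 of 19 in corpus and all 20 in antrum.

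Within a group, the 40 genes often lay on the same side of their group mean. All 40 lay below their group mean in corpus inhibited lines 8025 and 8026 and all 40 above it in corpus inhibited line 8028, on the log2 scale. All 40 also lay above it in corpus vehicle line 8028, antrum inhibited line 8026 and antrum vehicle line 8026, and all 40 below it in antrum inhibited line 8025. In the other libraries they were divided, with 33 below the mean in antrum inhibited line 8028, 39 in antrum vehicle line 8028, 35 in corpus vehicle line 8026, 30 in corpus vehicle line 8025 and 22 in antrum vehicle line 8025. The members' median deviations ran between -0.34 (corpus inhibited line 8025) and 0.50 (corpus inhibited line 8028), beside -0.01 to 0.01 over all genes tested. Scaling and centring on the group mean hold the value over all genes near 0. Whether the members deviate together more than other gene sets was not tested. Their summed level was 3135, 3564 and 5538 CPM in corpus inhibited libraries and 5011, 4917 and 5880 CPM in corpus vehicle libraries. In antrum the sum was 4205, 4934 and 4358 CPM in inhibited libraries and 5524, 6391 and 5013 CPM in vehicle libraries. The corpus groups overlapped through line 8028, and the antral groups did not overlap.

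Within each line, inhibited over vehicle, the median log2 ratio of the 40 members was -0.61, -0.38 and -0.02 in corpus. Over all genes tested it was -0.06, -0.04 and -0.01. In corpus 39, 37 and 22 members were negative, beside 8962, 8706 and 8276 of 16152 genes. In antrum the members' median was -0.32, -0.32 and -0.11, beside -0.04, -0.02 and -0.03 over all genes. There 38, 36 and 28 members were negative, beside 8717, 8350 and 8639 of 16152 genes. Line 8028 thus had the members' smallest median in both regions. In corpus 22 members were lower in all 3 lines (55%, beside 35% of all genes) and 3 (Npm1, Gnl2 and Rrp1b) had groups that did not overlap (7.5%, beside 21.1%). In antrum 27 members were lower in all 3 lines (67.5%, beside 36.8%) and 13 had groups that did not overlap (32.5%, beside 24.6%).

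**Figure D3:**
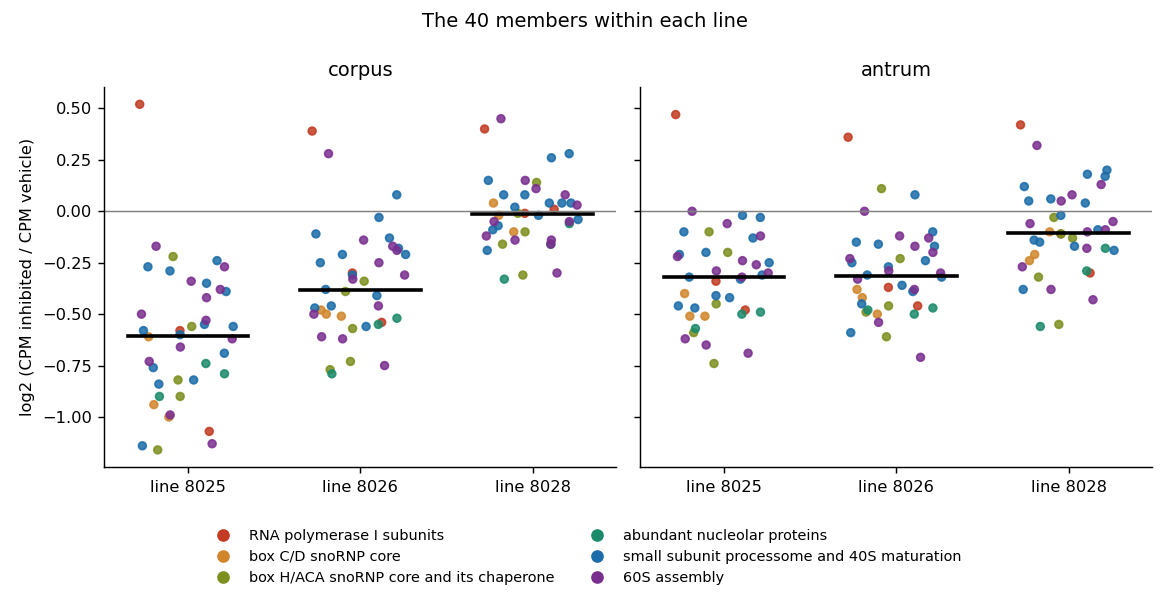
Log2 ratio of CPM, inhibited over vehicle within a line (0.5 CPM added to each value), for the 40 members in corpus (left) and antrum (right), coloured by role, with the median as a bar. The corpus medians of -0.61, -0.38 and -0.02 differ between the lines, and Polr1c lies at the top in lines 8025 and 8026.

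The same lines also differed in other readouts. Myc had 64.9, 70.0 and 96.6 CPM in corpus inhibited libraries and 111, 111 and 124 CPM in corpus vehicle libraries, and 73.7, 85.8 and 71.4 CPM in antrum inhibited and 124, 133 and 97.5 CPM in antrum vehicle libraries. Myc fell by 0.58 ± 0.152 on the log2 scale in corpus (adjusted p 0.0138) and by 0.62 ± 0.152 in antrum (adjusted p 0.0103). Mki67, a marker of cycling cells, had 131, 189 and 314 CPM in corpus inhibited libraries and 295, 315 and 368 CPM in corpus vehicle libraries (-0.62 ± 0.248, adjusted p 0.0792). The 25 proliferation genes had median ratios of -1.16, -0.77 and -0.17 within corpus lines 8025, 8026 and 8028. In corpus 2 of the 25 were lower (Cenpf at -0.82 ± 0.192 and Top2a at -0.84 ± 0.292), beside 15.4% of all genes. With the line block 20 were lower (beside 23.7%), and 25 without inhibited line 8028 (beside 21.2%). That library was the highest corpus inhibited library for all 25. Leaving it out therefore lowers the inhibited group by construction, and the count of 25 is no independent support. In antrum 2 of 25 were lower (Cenpf at -0.66 ± 0.191 and E2f1 at -0.65 ± 0.213), beside 13.4%, and 13 with the block (beside 20.2%). In antrum Mki67 stood at -0.48 ± 0.248 (adjusted p 0.17). The part of these readouts in the members' values was not tested.

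**Figure D4:**
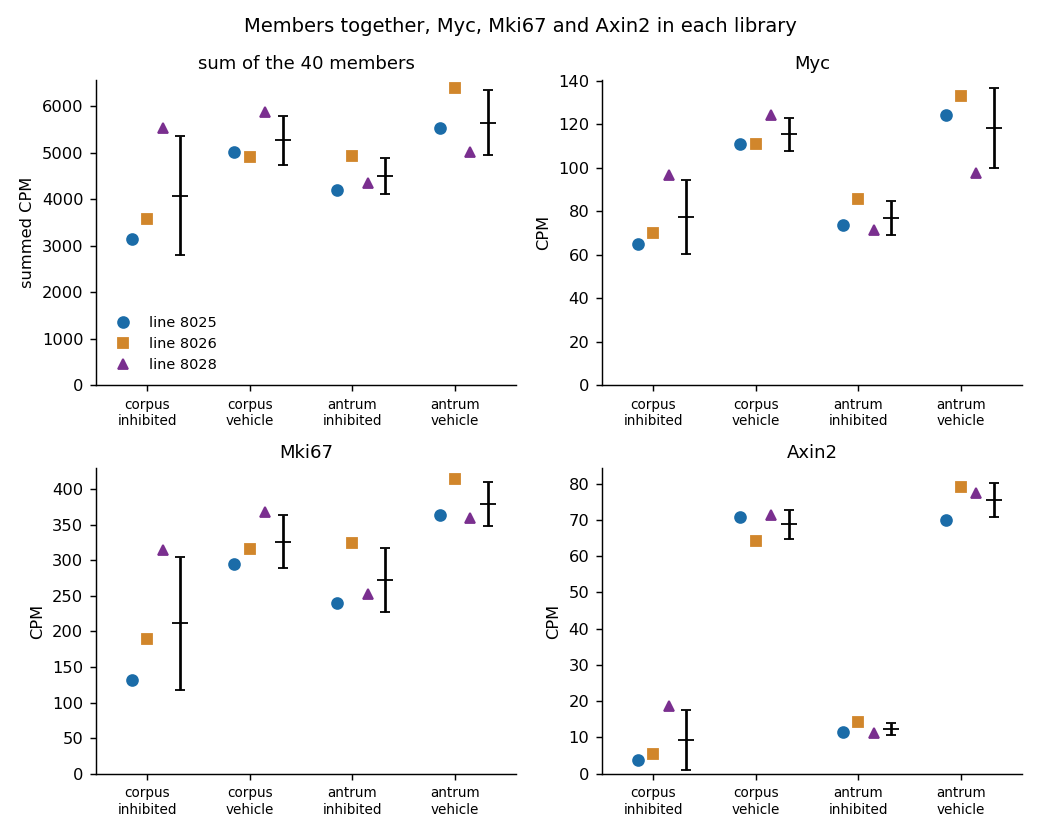
Summed CPM of the 40 members and CPM of Myc, Mki67 and Axin2 in each library, by group (inhibited left of vehicle within each region), with symbols for the lines and the mean and SD of 3 at the right of each group. In corpus inhibited libraries line 8028 (triangle) is highest in all 4 panels, with 5538 summed CPM and 18.7 CPM of Axin2.

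Epithelial genes changed in both directions beside the members. Of 9 epithelial markers 7 were higher and 2 lower in corpus (beside 15.5% and 15.4% of all genes). In antrum 7 were higher and 1 lower (beside 16.3% and 13.4%). The surface mucous cell genes Muc5ac and Tff1 stood at 5.66 ± 0.653 and 3.29 ± 0.245 in corpus and at 6.67 ± 0.708 and 3.54 ± 0.247 in antrum, and the gland mucin Muc6 stood at -4.04 ± 0.376 in corpus and -3.38 ± 0.358 in antrum. Tff2, another gene of that list, had 715, 642 and 1131 CPM in corpus inhibited and 131, 149 and 238 CPM in corpus vehicle libraries. In antrum it had 1049, 831 and 1457 CPM in inhibited and 141, 90.7 and 218 CPM in vehicle libraries. Tff2 was thus higher with inhibition while Muc6 was lower. The part of these changes in the members' values was not tested.

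The parietal, chief and endocrine markers summed to 16.7 to 20.9 CPM in corpus inhibited, 131 to 364 in corpus vehicle, 12 to 34.8 in antrum inhibited and 85.1 to 128 CPM in antrum vehicle libraries. Of the 4 tested, 3 were lower in corpus and 2 in antrum (beside 15.4% and 13.4% of all genes). The chief cell gene Pgc, which encodes a pepsinogen, had 15.3, 11.6 and 12.2 CPM in corpus inhibited libraries and 170, 130 and 61.0 CPM in corpus vehicle libraries (-3.21 ± 0.43, adjusted p 0.000235). Cblif, which encodes gastric intrinsic factor, had 4.66, 4.49 and 4.74 CPM in corpus inhibited libraries and 192, 173 and 68.9 CPM in corpus vehicle libraries (-4.96 ± 0.462, adjusted p 2.14e-05). In antrum Pgc stood at -1.75 ± 0.408 and Cblif at -3.39 ± 0.441. The part of these falls in the members' values was not tested.

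Markers of cells outside the epithelium were low. The 6 fibroblast markers summed to 0.514 to 0.978 CPM in corpus inhibited, 0.599 to 0.741 in corpus vehicle, 0.274 to 0.317 in antrum inhibited and 0.758 to 1.47 CPM in antrum vehicle libraries. The 4 endothelial markers reached at most 2.13 CPM. The 6 immune markers summed to 16.0 to 52.2 CPM in corpus inhibited, 29.1 to 39.2 in corpus vehicle, 18.2 to 28.4 in antrum inhibited and 10.2 to 28.1 CPM in antrum vehicle libraries. Nearly all of that was Cd68, a lysosomal gene, which had 50.6, 35.7 and 14.9 CPM in corpus inhibited libraries and 37.1, 38.5 and 28.2 CPM in corpus vehicle libraries, while the pan-leukocyte gene Ptprc did not exceed 0.86 CPM and 1 of the 6 was at 0 in every library.

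The regions were then compared. No member differed between antrum and corpus in its response (edgeR; the background was 1 gene, 0.00619%), and 0 members had an unadjusted p below 0.05; DESeq2 and limma-voom also called 0. The differences, antrum response minus corpus response, ran between -0.12 ± 0.264 for Bop1 and 0.19 ± 0.2 for Nop10. In vehicle cultures antrum over corpus gave 0 members (background 0.198%). It also gave 0 at an unadjusted p below 0.05, and 0 by DESeq2 and limma-voom. Of the 40 fitted differences 36 were positive, with a median of 0.13 beside -0.01 over all genes tested. The largest was Bop1 at 0.37 ± 0.187 (adjusted p 0.367), which had 82.2, 94.4 and 68.4 CPM in antrum vehicle and 64.1, 54.3 and 71.8 CPM in corpus vehicle libraries.

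After inhibition antrum over corpus also gave 0 members (background 0.0619%). It gave 0 at an unadjusted p below 0.05, and 0 by DESeq2 and limma-voom. All 40 differences were positive, with a median of 0.19 beside 0.01 over all genes tested. The members moved together between libraries, so their shared sign is not 40 separate results. The count of 0 members depended on corpus line 8028. Without its inhibited library 22 members were higher in antrum (55%, beside 7.42% of all genes) and 0 were lower (beside 3.97%), and without both of its libraries 26 passed (65%, beside 14.6%). Without its inhibited library, Polr1b stood at 0.70 ± 0.143 (edgeR adjusted p 0.0225), Wdr43 at 0.59 ± 0.126 (0.0244) and Nop58 at 0.65 ± 0.145 (0.0275). All 40 members lay above their group mean in that inhibited library, so leaving it out raises these differences by construction. These genes were also chosen after their values were seen, so their p-values are descriptive only. The regional difference in response still gave 0 members without that library.

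Per length of annotated exon, Npm1 was the highest member in all 4 groups, at 251 ± 74.5 CPM per kb in corpus inhibited, 390 ± 28.8 in corpus vehicle, 261 ± 21.4 in antrum inhibited and 379 ± 18.6 CPM per kb in antrum vehicle cultures (SD, n = 3). Ncl followed at 79.0 ± 27.8, 107 ± 14.5, 86.0 ± 7.65 and 116 ± 15.8 CPM per kb in the same groups, and Nhp2 was the third, at 66.9 ± 23, 77.2 ± 6.92, 80.6 ± 10.3 and 91.8 ± 14.3 CPM per kb. In both inhibited groups Nhp2 and Ncl lay within 1 SD of each other; in both vehicle groups they lay further apart. Wdr12 was lowest in every group, at 2.03 ± 0.851, 2.68 ± 0.376, 2.35 ± 0.268 and 2.99 ± 0.458 CPM per kb. The length joins the annotated exons of all transcripts of a gene (11955 bases for Wdr12), so this ranking depends on the annotation. In CPM, Wdr12 averaged 32.1 in corpus vehicle, above Noc3l at 28.3. In corpus inhibited it averaged 24.2, below Noc3l at 25.6. Polr1c took the fourth place in corpus inhibited cultures, at 49.6 ± 1.16 CPM per kb, against 36.5 ± 2.36 CPM per kb in corpus vehicle cultures.

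The 40 genes are all protein-coding and lie on 16 chromosomes of GRCm38. Gar1 (ENSMUSG00000028010) lies on chromosome 3 from 129824912 to 129831396, Npm1 (ENSMUSG00000057113) on chromosome 11 from 33152287 to 33163206, Rrp1b (ENSMUSG00000058392) on chromosome 17 from 32036100 to 32062865 and Polr1c (ENSMUSG00000067148) on chromosome 17 from 46243920 to 46248054. Nop58 and Wdr12 are the only pair within 1 Mb of each other, 350741 bases apart on chromosome 1. Of the 40, 7 (17.5%) hold an annotated snoRNA gene within their bounds (Nop56, Nop58, Dkc1, Ncl, Wdr43, Tsr1 and Gnl3), beside 2.81% of 12971 protein-coding genes tested. Of the members, 19 share exon bases with another annotated gene, among them Rrp1b (54 bases with Hsf2bp on the other strand), while Polr1c, Gar1, Npm1 and Nop16 share none.

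RefSeq promoter windows on GRCm38.p6, 250 bases before to 50 after each annotated start, were at hand for 35 of the 40 members and for 27025 genes in all. They were read for CACGTG, the E-box letters that MYC with its partner MAX binds and that read alike on both strands, and for CTTTGAT, the core letters of TCF/LEF factors, on either strand. The motifs do not overlap each other. CACGTG was found in 6 of 35 members (17.1%, beside 8.09% of all genes) and CTTTGAT in 1, Noc4l (2.86%, beside 4.29%). The 27025 genes with windows outnumber the 16152 genes tested, whereas all members were tested. The shares thus compare unlike sets, and no excess was tested. The 6 E-box matches are shown with their surroundings, 30 bases each, 5′ to 3′ on the gene's strand and with the E-box in capitals, because they show where in the window the letters lie. They begin at base 41 after the start in Mybbp1a (chr11:72441347-72441376, plus strand), 38 in Utp20 (chr10:88826765-88826794, minus strand), 18 in Wdr43 (chr17:71616220-71616249, plus strand), 25 in Tsr1 (chr11:74898092-74898121, plus strand), 3 in Pes1 (chr11:3963965-3963994, plus strand) and at -60, before the start, in Nop2 (chr6:125131811-125131840, plus strand).
Mybbp1a: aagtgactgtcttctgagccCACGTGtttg
Utp20: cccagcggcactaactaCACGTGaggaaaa
Wdr43: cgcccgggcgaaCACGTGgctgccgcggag
Tsr1: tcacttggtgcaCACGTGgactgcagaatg
Pes1: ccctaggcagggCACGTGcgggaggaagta
Nop2: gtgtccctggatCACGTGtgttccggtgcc
None of these 6 passed the test in either region; Mybbp1a, Utp20, Wdr43 and Pes1 passed, lower, in corpus with the line block, and Utp20 also in antrum. Gar1 and Rrp1b, which fell in both regions, hold neither motif in their windows. The 100 bases before each of these genes are given for comparison (Gar1, chr3:129831397-129831496, minus strand; Rrp1b, chr17:32036000-32036099, plus strand), with no capitals since neither motif is there.
Gar1: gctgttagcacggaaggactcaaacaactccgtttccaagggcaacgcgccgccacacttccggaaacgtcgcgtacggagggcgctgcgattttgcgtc
Rrp1b: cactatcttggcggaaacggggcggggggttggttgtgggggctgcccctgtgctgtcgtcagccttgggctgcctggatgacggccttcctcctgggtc
A match describes letters, and its absence says nothing of whether a factor binds.

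Other genes of the pathway, outside the 40, gave calls in both directions. Over all genes tested, edgeR called 15.4% lower and 15.5% higher in corpus, and 13.4% lower and 16.3% higher in antrum. With the line block 23.7% were lower and 19.8% higher in corpus, and 20.2% lower and 20.6% higher in antrum. These shares stand beside the counts of every gene list below, and no list was tested as a set. Of 12 snoRNP assembly genes tested, 6 were lower in corpus (8 with the line block) and 3 in antrum (5 with the block), among them Tgs1, which hypermethylates snoRNA caps, at -0.36 ± 0.0756 in corpus, and Rpap3, a cochaperone, at -0.45 ± 0.0948 in corpus and -0.45 ± 0.0952 in antrum. Of 11 snoRNA host transcripts 4 were lower in corpus (8 with the block) and 1 in antrum (8 with the block), with Gas5 at -0.47 ± 0.114 in corpus and Snhg6 at -0.38 ± 0.102 in corpus and -0.49 ± 0.103 in antrum. Of 13 other genes for ribosomal DNA transcription 2 were lower in each region (4 and 3 with the block), Taf1b of the promoter selectivity factor at -0.32 ± 0.106 in corpus and -0.39 ± 0.107 in antrum, and the polymerase I subunit Twistnb at -0.32 ± 0.106 and -0.33 ± 0.106. Taf1b lost its corpus call with relative log expression (RLE) scaling (adjusted p 0.0517).

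Among 45 other genes for the small subunit, 0 were lower in either region by edgeR, DESeq2 or limma-voom (6 in corpus and 1 in antrum at an unadjusted p below 0.05; 14 and 4 with the block) and 2 were higher in corpus and 3 in antrum. Dcaf13, a processome protein, stood at 0.21 ± 0.0737 in corpus and 0.41 ± 0.0741 in antrum, and Utp11 at 0.20 ± 0.0708 and 0.31 ± 0.0711. Among 48 other genes for 60S assembly, 3 were lower in corpus (Nvl, Brix1 and Rsl1d1; 14 with the block) and 1 in antrum (Rsl1d1; 8 with the block), and 2 were higher in each region. Sbds, which helps release a factor from late 60S subunits, stood at 0.23 ± 0.0635 in corpus and 0.42 ± 0.0639 in antrum. With total-count scaling none of these lists kept a higher call in corpus (adjusted p 0.707 for Dcaf13, 0.755 for Utp11 and 0.528 for Sbds). The RNA exosome and trimming genes gave 0 of 14 in both regions by edgeR, DESeq2 or limma-voom (3 lower in corpus and 4 in antrum at an unadjusted p below 0.05), and 5 lower in corpus and 6 in antrum with the block.

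Of 13 tested genes of the MYC network, 4 were lower and 2 higher in corpus, and 3 lower and 2 higher in antrum. The MYC relatives Mycn and Mycl stood at -0.94 ± 0.108 and -0.93 ± 0.175 in corpus and at -1.02 ± 0.108 and -0.71 ± 0.175 in antrum. Mxd1, a MAX partner that opposes MYC, had 53.4, 52.8 and 43.3 CPM in corpus inhibited libraries and 23.4, 28.2 and 27.9 CPM in corpus vehicle libraries (0.91 ± 0.187, adjusted p 0.00352). In antrum Mxd1 had 60.3, 70.7 and 55.6 CPM in inhibited libraries and 29.1, 19.5 and 35.8 CPM in vehicle libraries (1.15 ± 0.189, adjusted p 0.000902). Every inhibited library was above every vehicle library of its region. Mlx, which pairs with the MXD proteins, stood at 0.65 ± 0.117 in corpus and 0.71 ± 0.117 in antrum. These 5 genes, Myc included, kept their calls in both regions under the 3 other scalings.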

How the data were processed

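PolyA-selected RNA of 12 libraries was sequenced. The deposited values are expected counts, 1 per gene and library, which the authors made with tools that the submitters' processing notes list as cutadapt 2.3, FastQC 0.11.8, STAR 2.7.8a and RSEM 1.3.3 on GRCm38, without their settings; the sources used here state neither strandedness nor annotation release, so overlapping genes cannot be told apart. Values were rounded to whole numbers. Of 55426 rows, 55421 are genes; the rest, transgene sequences, were left out. Replicates are independent organoid lines, per the labels' protocols.

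The test was edgeR 4.0.16 in R 4.3.3, with TMM scaling, filterByExpr (16152 genes left) and 1 robust quasi-likelihood model over the 12 libraries, which leaves 8 residual degrees of freedom. P-values are two-sided and adjusted over all genes tested. Vehicle and inhibited libraries of a line are paired by the protocol; within the 6 pairs, deviations from the group mean had correlations between 0.234 and 0.617. All replicates differed by more than counting noise (chi-square over its degrees of freedom 10.9 or more). The alternatives comprised 3 other scalings (RLE, upper quartile, total counts), other filters, DESeq2 1.42.0, limma-voom (limma 3.58.1), the line block, fits of 6 libraries and leaving libraries out. The calculation was tested on simulated data, drawn with the same spread for every gene and without line effects. Those data therefore do not bear on the choice between fits with and without the line block. Positions are from GENCODE mouse release 21 and promoters from RefSeq, both GRCm38.

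The members and gene lists were chosen with earlier results of these data known. All members are named; values in every library are given for the members with the lowest and highest adjusted p in corpus within each role and for any member called against the majority. The values of Gnl2, Nop16 and Bop1, and the regional values of Polr1b, Wdr43 and Nop58 without line 8028, were added after they were seen. Of the other lists up to 3 genes per direction with the lowest adjusted p could be named.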

Additional observations from a re-analysis of the deposited data

How the results depend on the processing

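No call of a member reversed under the 29 alternatives, and of 1285 member results that passed in neither fit 49 changed sign. The number of members lower in corpus was 5 in the fit reported (beside 15.4% of all genes). It was 3 with RLE scaling (beside 14.3%) and 1 without a low-count filter (beside 7.15%). With only the 6 corpus libraries it was 0 (beside 10.4%), and with the replicate block 22 (beside 23.7%). It ranged between 0 and 30 when a library or a line was left out (beside 6.98% to 21.2%). The highest was without inhibited line 8028, and it was 25 when both its libraries were dropped (beside 19%). The member higher in corpus, Polr1c, gave 0 with total-count scaling. The number lower in antrum was 3 (beside 13.4% of all genes), and 0 without a low-count filter (beside 6.07%). It was 12 with only the 6 antral libraries (beside 16.9%) and 10 with the replicate block (beside 20.2%). It ranged between 0 and 2 when a library or a line was left out (beside 6.19% to 10.5%). Dropping antrum vehicle lines 8025 and 8028 together leaves a single vehicle library. The members' median change was then -0.45, beside -0.01 over all genes. Antrum over corpus after inhibition gave 0 members, and between 0 and 26 when a library or a line was left out. The 22 and 26 without line 8028 stood beside 11.4% and 14.6% of all genes in either direction. The replicate block changed no call of the regional difference in response, which stayed at 0 members. The causes were not tested. Total-count scaling moved the median change of all genes in corpus to -0.19 and in antrum to -0.12, and the members' medians to -0.43 and -0.33. The scalings applied to the other gene lists were added after seeing the data.

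A member that did not pass is not shown to be unchanged. The lowest member count in any library was 379; what depth contributes to the calls was not tested. The dose of XAV939 is given as labelled. Corpus and antral lines carry the same numbers, but no label ties a number to a mouse, so the regions were not paired.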

Other observations

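Cytosolic ribosomal protein genes encode the ribosome's own proteins. Of 78 measured, edgeR called 9 lower in corpus (beside 15.4% of all genes). It called 17 with the line block (beside 23.7%) and 24 without inhibited line 8028 (beside 21.2%). In antrum edgeR called 0 lower (beside 13.4%), and 5 had an unadjusted p below 0.05. There DESeq2 called 3 (beside 14.3%), limma-voom 2 (beside 13.5%) and the block 3 (beside 20.2%). The median log2 changes were -0.12 in corpus and -0.08 in antrum, beside -0.04 over all genes in each region. The 3 lowest adjusted p in corpus belonged to Rpl22 (-0.28 ± 0.0633), Rps25 (-0.24 ± 0.0639) and Rpl3 (-0.25 ± 0.0709). Upper quartile scaling gave 23 lower in corpus (beside 17.4% of all genes) and 10 in antrum (beside 17.5%). Total-count scaling gave 34 (beside 23.1%) and 0 (beside 13.8%). These genes have many processed copies in the genome, so their counts are uncertain. Their summed level was 50926 to 56889 CPM in corpus inhibited and 55525 to 59669 CPM in corpus vehicle libraries, and 51700 to 56228 CPM in antrum inhibited and 53804 to 58954 CPM in antrum vehicle libraries.

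Of 12 targets of p53, a factor that responds to disturbed ribosome assembly among other stresses, 7 were lower in corpus and 4 in antrum and 0 were higher (edgeR; 1 higher in each region at an unadjusted p below 0.05 and with the line block; DESeq2 gave 1 in corpus and 0 in antrum, limma-voom 0 in both). Trp53inp1 stood at -0.62 ± 0.141 in corpus and -0.52 ± 0.141 in antrum, Sesn1 at -0.43 ± 0.0981 and -0.42 ± 0.0984, and Phlda3 at -0.37 ± 0.0891 and -0.33 ± 0.0894. Cdkn1a, the cell cycle inhibitor p21, stood the other way, with 431, 374 and 244 CPM in corpus inhibited libraries and 278, 266 and 214 CPM in corpus vehicle libraries (0.47 ± 0.186, adjusted p 0.0787; 0.00588 with the line block).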
